A study of Homo sapiens with 2 samples.

Results

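The genes described here encode the MHC molecules and the machinery that cuts, transports and loads their peptides. They were chosen by name as 37 genes in 6 roles: the class I heavy chains, the class I loading and assembly genes, the immunoproteasome, the class II chains, the class II editing genes with the invariant chain, and the MHC transcription factors. Of these 37 genes, 36 were matched to probe sets by their current or an older symbol, among 20258 named genes in all. No probe set carried the symbol HLA-DRB1, which was not analysed here.

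Total RNA was profiled on expression arrays from AGS, an established human cell line grown from a gastric adenocarcinoma. The cells of the LBH589 array had been exposed to 100 nM LBH589 for 24 h, and those of the control array were given none, per the labels, although its title reads as control treated. LBH589 is panobinostat, an inhibitor of histone deacetylases. Each group was 1 array of 1 cell line, so no difference below has a replicate, an error or a test, and calls rest on size: a gene is called where the arrays differ by at least 2-fold.

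MHC class I molecules are made by nearly all nucleated cells and show peptides from inside the cell to CD8 T cells. The proteasome cuts the proteins, the TAP transporter carries the peptides into the endoplasmic reticulum, ERAP peptidases trim them, and tapasin and its partners load them onto a heavy chain paired with beta-2-microglobulin. MHC class II molecules show peptides from endosomes to CD4 T cells and are normally made by specialised antigen-presenting cells, under the control of the coactivator CIITA. Interferon gamma induces genes of both routes.

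Intensities are the deposited linear values, and ratios are LBH589 over control. All 33297 probe sets together had a median intensity of 4.77 in LBH589-treated cells and 4.84 in control cells. Of the intensities, the lowest 20% were raised to a floor of 2.95, and a gene whose brighter array reached it was counted as detected, which held for 18793 genes and for all 36 genes measured here. Olfactory receptor genes, which are normally silent outside the nose, gave the background: 95% of the intensities of their 453 probe sets lay below 4.43. Their log2 ratios, taken after the floor was applied, had an SD of 0.14. This SD describes dim signals only, and the spread of bright ones was not measured. Over all genes detected the median log2 ratio was 0.00 and the central 95% ran from -1.37 to 1.33. All 8 epithelial markers reached background, among them KRT8 with 2292 in LBH589-treated cells and 1967 in control cells. Of 20 leukocyte markers, 14 were below background on both arrays, among them PTPRC (CD45) with 2.95 in LBH589-treated cells and 2.76 in control cells. The 18 leukocyte markers that reached the floor summed to 99.7 in LBH589-treated cells and 77.7 in control cells, with CORO1A at 25.4 in treated and 6.38 in control cells.

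The genes of the class I route differed in both directions on the LBH589 array. The genes for the heavy chains were all somewhat brighter than on the control array. Their log2 ratios, from 0.28 to 0.64, lay inside the central range of all genes detected, from -1.37 to 1.33. Several genes that cut, carry, trim and load the peptides were dimmer, but not all. Of the 5 immunoproteasome genes, 3 had log2 ratios above 0 and 2 below. Of the 10 loading and assembly genes, B2M included, 3 were above 0 and 7 below. The gene for beta-2-microglobulin differed little, with a log2 ratio of 0.11. Of the 36 genes measured, 5 were at least 2-fold lower (ERAP2, ERAP1, TAP1, TAPBP and PSMB8), none was 2-fold higher and 31 lay within 2-fold, with a median log2 ratio of 0.11. Over all genes detected, 4.86% were 2-fold lower and 4.91% were 2-fold higher, and over the 13328 that reach background on at least 1 array, as 29 of the 36 do, 6.85% were lower and 6.92% higher. The genes lower here all belong to peptide trimming, transport, loading or the immunoproteasome. Fewer cells with the RNA and less RNA per cell cannot be told apart in such samples, and with arrays normalized to each other a change shared by most genes would not be seen.

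**Figure D1:**
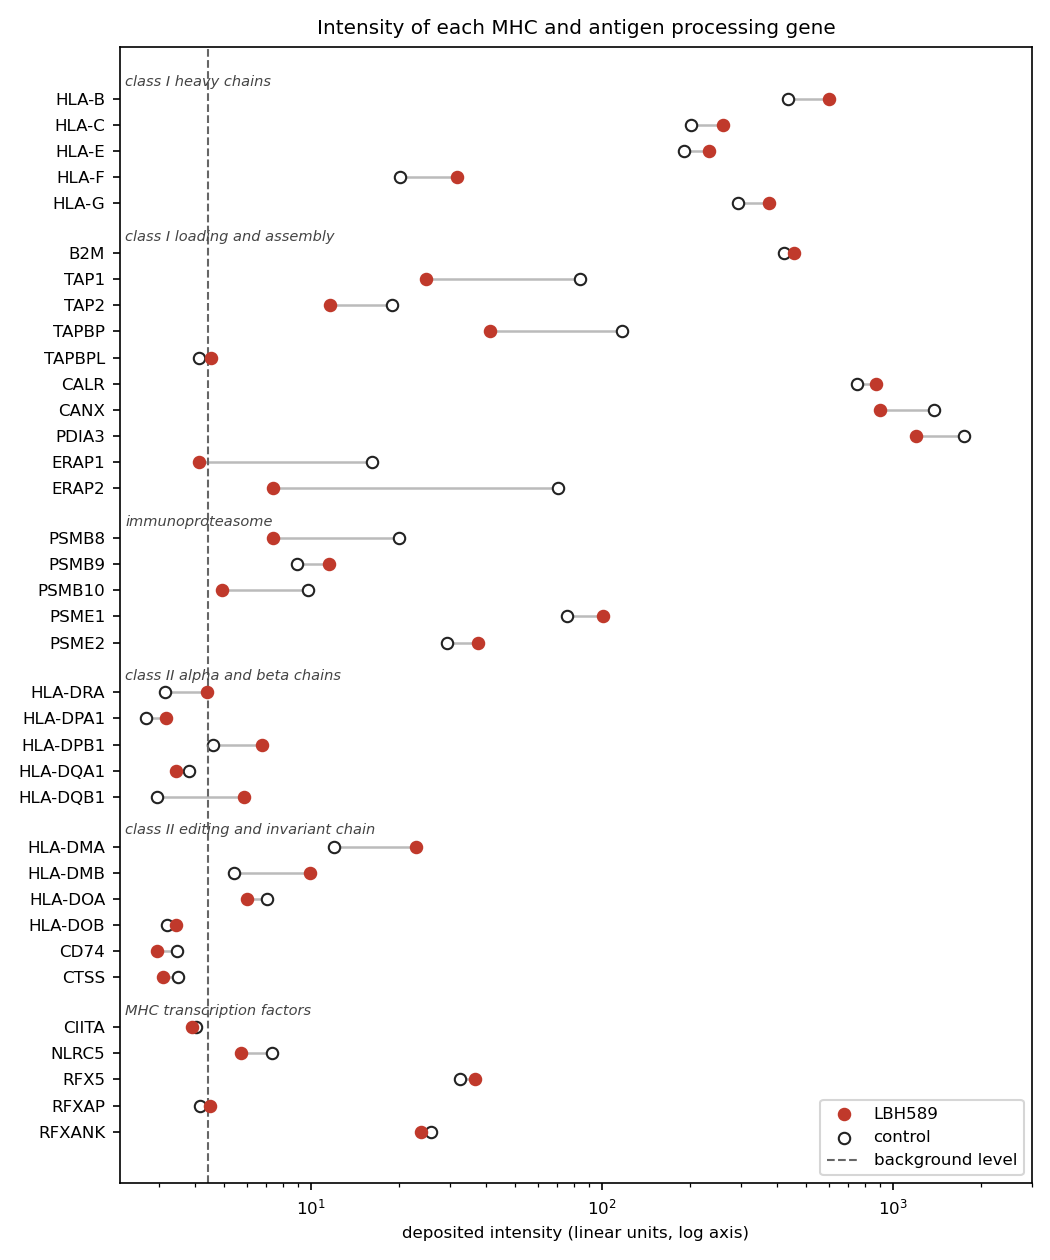
Deposited intensity (linear units on a log axis) of each of the 36 genes on the LBH589 array (filled) and the control array (open), grouped by role, with the background of 4.43 as a dashed line. The heavy chains are brighter on the LBH589 array, ERAP2, ERAP1, TAP1, TAPBP and PSMB8 are far dimmer there, and most class II genes lie near background on both arrays. Levels of different genes cannot be compared with each other.

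The class I heavy chains were brighter on the LBH589 array in 5 of 5 genes, with a median log2 ratio of 0.37, and none reached 2-fold. HLA-B, a classical heavy chain that presents peptides, had an intensity of 602 in LBH589-treated cells and 434 in control cells, a 1.39-fold difference. HLA-C, the classical heavy chain that is also a main ligand of killer cell receptors, had 261 in LBH589-treated cells and 202 in control cells. Both classical chains were thus brighter after exposure to the drug, by less than 1.5-fold.

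The non-classical chains moved by similar amounts. HLA-E, which shows leader peptides of other class I chains to NKG2A receptors, had 232 in LBH589-treated cells and 191 in control cells. HLA-F, a chain of restricted distribution, had 31.7 in LBH589-treated cells and 20.3 in control cells, the largest difference among the heavy chains at 1.56-fold. HLA-G, best known from the placenta, had 374 in LBH589-treated cells and 293 in control cells by its brightest probe set and 254 in treated and 239.6 in control cells by another. The heavy chains are alike in sequence, and how far a probe set named for HLA-G also reads RNA of the others was not tested. B2M, the light chain that all of them share, had 455 in LBH589-treated cells and 422 in control cells, a log2 ratio of 0.11.

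Every probe set of the heavy chains had a log2 ratio above 0. The ratios of the HLA-B probe sets lay between 0.47 and 0.51 on the log2 scale, those of HLA-C both at 0.37, those of HLA-F between 0.58 and 0.73, and those of HLA-G between 0.09 and 0.35. Of the 36 genes, 19 had more than 1 probe set, and in 9 of these several probe sets held identical values on both arrays, so they are not separate measurements. The range of ratios within a gene had a median of 0.04 and was widest for HLA-DQB1, at 0.90.

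**Figure D2:**
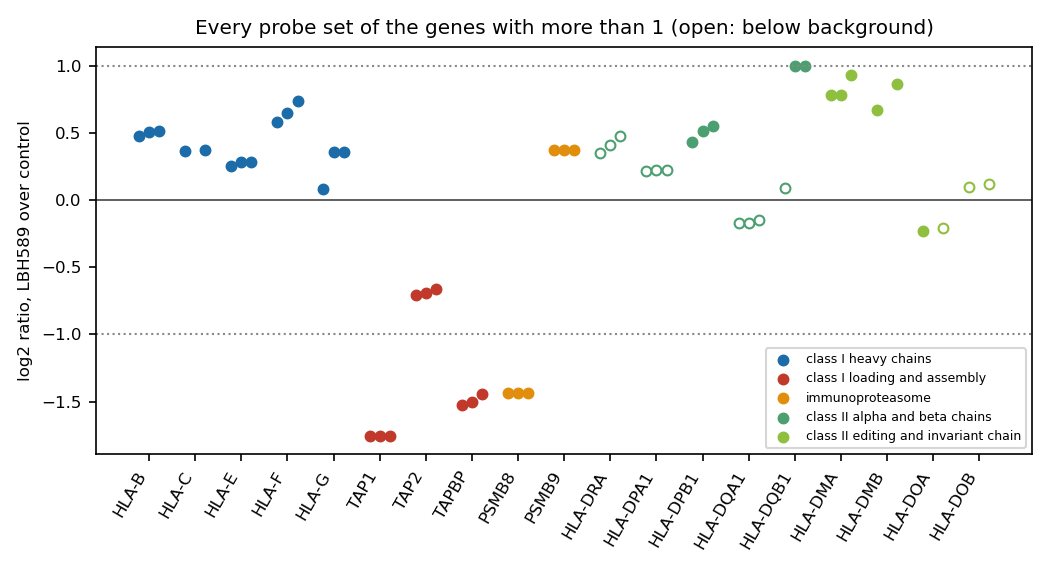
Log2 ratio, LBH589 over control, of every probe set of the 19 genes with more than 1, coloured by role; open points are below background on both arrays and dotted lines mark 2-fold. The probe sets of TAP1, TAPBP and PSMB8 all lie below the lower 2-fold line, those of the heavy chains all lie above 0, and those of HLA-DQB1 disagree with each other.

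The enzymes that trim peptides in the endoplasmic reticulum showed the largest differences. ERAP2, a peptidase that trims the N-terminal end of peptides, had 7.41 in LBH589-treated cells and 70.5 in control cells, a 9.52-fold lower value. This was number 22 from the bottom among 18793 genes detected. ERAP1, its partner and close relative, had 4.11 in LBH589-treated cells, which is below background, and 16.2 in control cells, so it was at least 3.66-fold lower. Both trimming enzymes were thus lower, each by 1 probe set.

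Transport and tapasin followed in the same direction. TAP1, a subunit of the peptide transporter, had 24.9 in LBH589-treated cells and 84.0 in control cells, a 3.37-fold lower value. TAP2, the other subunit, had 11.6 in LBH589-treated cells and 18.9 in control cells, a 1.63-fold difference that does not reach 2-fold. TAPBP (tapasin), which bridges the transporter to the heavy chain, had 41.3 in LBH589-treated cells and 117 in control cells and was 2.83-fold lower. The log2 ratios of its probe sets lay between -1.52 and -1.44. TAPBPL (TAPBPR), a tapasin relative that edits peptides without the transporter, was near background, with 4.52 in LBH589-treated cells and 4.12 in control cells.

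The general chaperones of the loading complex, which also serve other glycoproteins, stayed within 2-fold. CALR (calreticulin) had 873 in LBH589-treated cells and 752 in control cells. CANX (calnexin) had 900.2 in LBH589-treated cells and 1384 in control cells, and the disulphide isomerase PDIA3 (ERp57) had 1195 in LBH589-treated cells and 1751 in control cells. Of the 10 loading and assembly genes, B2M included, 4 were 2-fold lower and none higher, with a median log2 ratio of -0.66. The calls were sensitive to the treatment of dim signals: with 50 added to every intensity 1 gene, ERAP2, stayed 2-fold lower, and with a floor of 16 ERAP1 and PSMB8 no longer reached 2-fold.

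**Figure D3:**
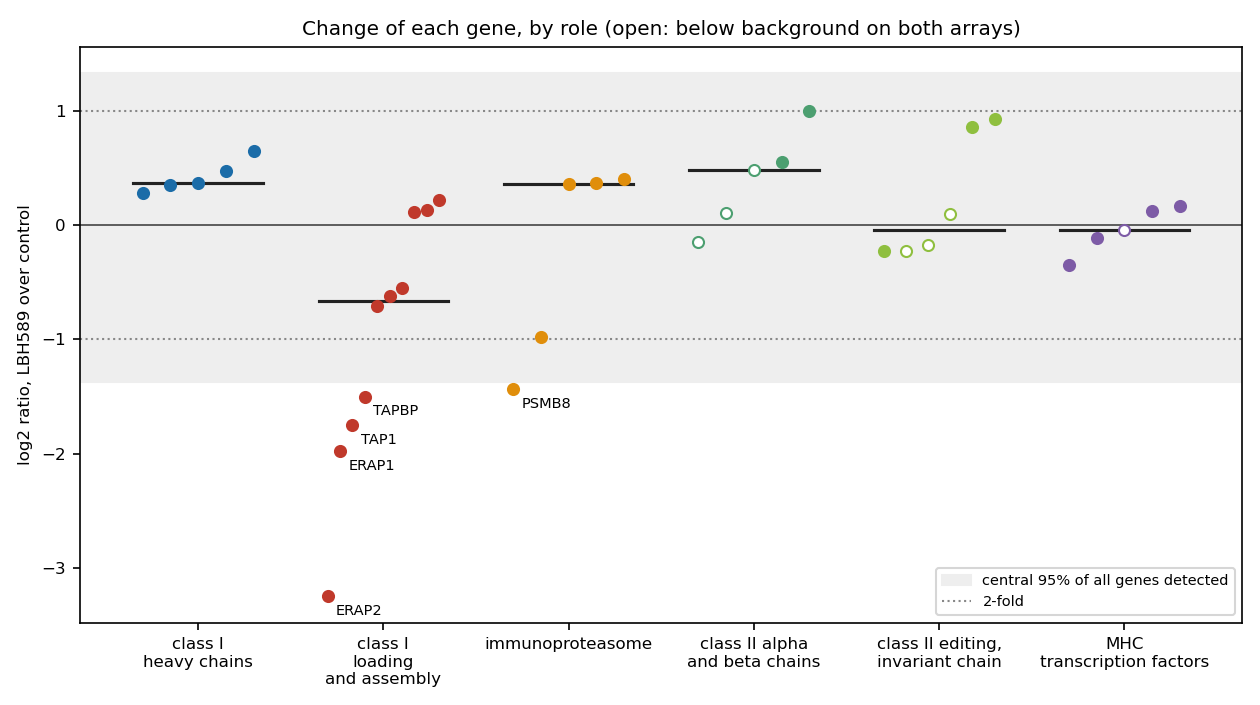
Log2 ratio, LBH589 over control, of each gene by role; the bar is the median of the role, the grey band holds the central 95% of all genes detected, dotted lines mark 2-fold and open points are below background on both arrays. ERAP2, ERAP1, TAP1, TAPBP and PSMB8 lie below the grey band, and the heavy chains lie between 0.28 and 0.64.

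The immunoproteasome is a form of the proteasome in which PSMB8, PSMB9 and PSMB10 take the place of the constitutive catalytic subunits PSMB5, PSMB6 and PSMB7, and PSME1 and PSME2 form its PA28 activator. Its genes did not move together, and their median log2 ratio was 0.35. PSMB8 had 7.40 in LBH589-treated cells and 20.01 in control cells and was 2.70-fold lower. PSMB10 had 4.95 in LBH589-treated cells, close to background, and 9.76 in control cells, which is 1.97-fold lower and just short of the 2-fold size. PSMB9 went the other way, with 11.5 in LBH589-treated cells and 8.91 in control cells. The activator subunits were brighter as well, PSME1 with 100.5 in LBH589-treated cells and 76.0 in control cells, and PSME2 with 37.3 in treated and 29.2 in control cells.

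Set beside their constitutive counterparts, the catalytic subunits differed in opposite ways. PSMB5 had 54.5 in LBH589-treated cells and 67.2 in control cells, so the log2 ratio of PSMB8 was below that of PSMB5 by a difference of -1.13. PSMB7 had 192 in LBH589-treated cells and 207 in control cells, and the log2 ratio of PSMB10 differed from it by -0.87. PSMB6 had 92.9 in LBH589-treated cells and 149.7 in control cells, and the log2 ratio of PSMB9 was above it by 1.06. None of the 5 constitutive counterparts, which include the activator PSME3 and the inhibitor PSMF1, reached 2-fold.

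Of the 5 lower genes, TAP1, TAPBP and PSMB8 lie in the MHC region and ERAP1 and ERAP2 on chromosome 5. Of the 37 genes, 20 lie on chromosome 6 in the RefSeq annotation of GRCh38.p14, which was used for gene order. TAP2, PSMB8, TAP1 and PSMB9 stand next to each other within the class II part of the region, and TAPBP comes last in that order. In that block the log2 ratios were -0.71 for TAP2, -1.44 for PSMB8 and -1.75 for TAP1, but 0.37 for PSMB9. On either side of the block, HLA-DOB was below background on both arrays and HLA-DMB was higher by a log2 ratio of 0.86. TAP1 and PSMB9 are read away from each other, from start sites 488 bases apart. Neighbours on either side of this short stretch thus had ratios of opposite sign.

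**Figure D4:**
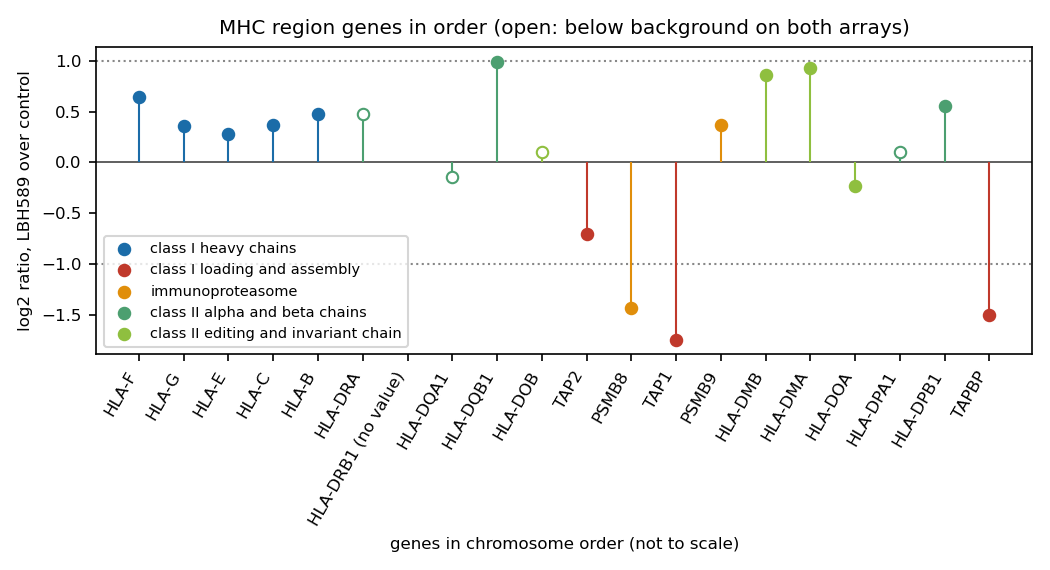
Log2 ratio, LBH589 over control, of the 20 genes on chromosome 6 in their order along it (not to scale), coloured by role; open points are below background on both arrays, dotted lines mark 2-fold, and HLA-DRB1 has no value. TAP2, PSMB8 and TAP1 lie below 0 side by side, with PSMB9 next to them at 0.37.

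The promoters of the lower genes are shown with those of the neighbour or partner genes that were not lower, since many genes of the class I route carry an interferon-stimulated response element (ISRE), a site for interferon regulatory factors. Windows run from 250 bases before to 50 bases after a start site, are credited to RefSeq with build GRCh38.p14, and were matched for 31 of the 37 genes, the others being CIITA, HLA-DRA, HLA-E, PDIA3, CTSS and NLRC5. Where a gene has several windows, the 1 with the element is printed. The windows of the lower genes are those of TAP1 at chr6:32853655-32853954 on the minus strand, TAPBP at chr6:33314029-33314328 on the minus strand, PSMB8 (a second listed start) at chr6:32843998-32844297 on the minus strand, ERAP1 at chr5:96807896-96808195 on the minus strand and ERAP2 (a second listed start) at chr5:96876250-96876549 on the plus strand. Those of genes within 2-fold are PSMB9 at chr6:32853942-32854241 on the plus strand, B2M at chr15:44711267-44711566 on the plus strand and HLA-F at chr6:29723184-29723483 on the plus strand. Each is printed from 5′ to 3′, and capitals mark every match of the ISRE core, which is GAAA followed by 2 bases of any kind and a second GAAA, or of its other strand, TTTC followed by 2 bases of any kind and a second TTTC; overlapping matches run together.
TAP1: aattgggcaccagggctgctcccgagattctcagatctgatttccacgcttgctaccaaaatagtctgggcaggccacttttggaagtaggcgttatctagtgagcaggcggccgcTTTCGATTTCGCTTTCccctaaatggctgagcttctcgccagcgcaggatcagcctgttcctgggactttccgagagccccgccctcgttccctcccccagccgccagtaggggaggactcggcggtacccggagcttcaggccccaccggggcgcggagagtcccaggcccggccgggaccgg
TAPBP: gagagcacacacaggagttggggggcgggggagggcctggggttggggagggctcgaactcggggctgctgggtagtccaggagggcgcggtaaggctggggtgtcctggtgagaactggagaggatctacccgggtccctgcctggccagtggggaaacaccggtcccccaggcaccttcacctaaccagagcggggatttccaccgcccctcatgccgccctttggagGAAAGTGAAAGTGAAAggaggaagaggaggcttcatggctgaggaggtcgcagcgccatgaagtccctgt
PSMB8: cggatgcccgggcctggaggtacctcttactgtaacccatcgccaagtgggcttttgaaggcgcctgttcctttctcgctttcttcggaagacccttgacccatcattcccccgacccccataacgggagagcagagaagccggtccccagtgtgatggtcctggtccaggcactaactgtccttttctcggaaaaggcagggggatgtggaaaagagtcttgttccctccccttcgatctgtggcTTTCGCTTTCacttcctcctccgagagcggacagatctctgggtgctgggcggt
ERAP1: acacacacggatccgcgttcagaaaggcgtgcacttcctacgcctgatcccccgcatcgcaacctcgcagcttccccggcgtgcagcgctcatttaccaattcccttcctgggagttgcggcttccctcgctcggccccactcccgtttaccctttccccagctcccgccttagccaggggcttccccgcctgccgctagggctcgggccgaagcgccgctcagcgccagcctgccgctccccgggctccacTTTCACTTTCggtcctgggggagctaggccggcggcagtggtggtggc
ERAP2: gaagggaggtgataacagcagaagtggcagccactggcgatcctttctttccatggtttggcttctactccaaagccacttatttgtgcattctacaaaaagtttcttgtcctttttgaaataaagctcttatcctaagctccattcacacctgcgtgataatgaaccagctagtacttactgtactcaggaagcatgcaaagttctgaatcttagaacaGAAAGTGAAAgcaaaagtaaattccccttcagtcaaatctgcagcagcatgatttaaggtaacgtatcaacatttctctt
PSMB9: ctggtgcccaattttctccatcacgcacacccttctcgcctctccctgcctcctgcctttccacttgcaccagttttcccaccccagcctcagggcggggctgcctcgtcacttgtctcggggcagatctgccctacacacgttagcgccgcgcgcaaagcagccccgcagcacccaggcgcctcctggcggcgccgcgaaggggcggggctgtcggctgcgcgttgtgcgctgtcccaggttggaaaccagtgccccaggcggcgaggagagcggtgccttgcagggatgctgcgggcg
B2M: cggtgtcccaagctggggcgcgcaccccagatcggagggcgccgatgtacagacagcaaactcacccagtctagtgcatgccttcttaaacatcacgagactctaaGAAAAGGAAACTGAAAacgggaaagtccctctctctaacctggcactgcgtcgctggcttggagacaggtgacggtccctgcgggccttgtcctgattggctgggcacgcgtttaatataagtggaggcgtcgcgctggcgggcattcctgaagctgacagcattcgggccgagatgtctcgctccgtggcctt
HLA-F: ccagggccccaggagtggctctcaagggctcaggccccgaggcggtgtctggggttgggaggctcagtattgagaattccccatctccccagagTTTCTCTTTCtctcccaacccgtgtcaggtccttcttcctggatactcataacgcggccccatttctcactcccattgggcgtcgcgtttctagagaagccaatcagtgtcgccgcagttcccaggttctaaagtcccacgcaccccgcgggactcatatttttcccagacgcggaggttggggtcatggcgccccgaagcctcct

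All 5 lower genes held the ISRE core in at least 1 window, and so did 7 of the 25 genes with a window that were within 2-fold. TAP1, PSMB8, ERAP1 and ERAP2 have 2 windows each, and only 1 of them holds the core. Genes here have from 1 to 4 windows, and more windows give more room for a match. The 7 genes within 2-fold were TAP2, PSMB10, B2M, RFX5, PSME1, PSME2 and HLA-F. The core was held by 4.38% of 27305 genes with a window in all, and by 3.57% of 35116 windows. It was found in 7.56% of 714 genes that were 2-fold lower, in 2.84% of 740 that were 2-fold higher and in 4.03% of 13648 genes detected. The 12 genes with the core had a median log2 ratio of -0.84, with a range from -3.25 to 0.64. The 18 measured genes without it had a median of 0.17, with a range from -0.62 to 0.99. The 2 groups also differ in role. None of the 10 class II genes with a window holds the core, so those measured all stand among the 18. Several of them are below background on both arrays. Role and core were not separated here. Only exact matches were counted, so related elements with other letters are missed. The windows of HLA-B and HLA-C hold tttcacttct, which begins like the core but does not match it, and both genes stand among the 18. The groups overlap: B2M, whose window holds the core in an overlapping pair of matches as those of TAP1 and TAPBP do, had a log2 ratio of 0.11. PSMB9 has no match in its window and TAP1, across the shared stretch, does. The TAP1 matches lie between the start sites of both genes, so they are upstream of PSMB9 too, beyond the edge of its window. PSMB9 thus stands among the 18 because of where its window ends, and the matches do not set the neighbours apart. These genes were chosen as a route that interferons are known to induce, a match of letters is a description and not a site, and no factor binding was measured here.

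**Figure D5:**
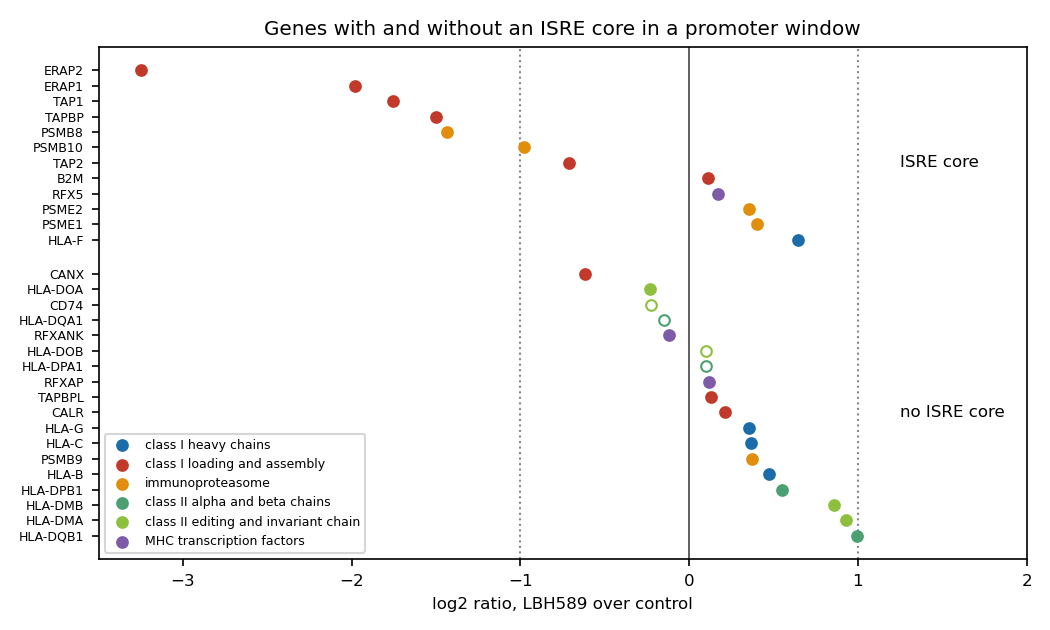
Log2 ratio, LBH589 over control, of the 30 measured genes with a promoter window, coloured by role. The 12 with an exact match of the ISRE core in a window are at the top and the 18 without are at the bottom. Open points are below background on both arrays and dotted lines mark 2-fold. All 5 genes beyond the lower 2-fold line are in the upper block, which also holds 5 genes above 0.

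The class II chains gave little signal on either array, and 2 of the 5 measured reached background. HLA-DRA, the alpha chain of the most abundant class II molecule, was below background with 4.39 in LBH589-treated cells and 3.15 in control cells. HLA-DPA1 had 3.17 in LBH589-treated cells and 2.71 in control cells, and HLA-DQA1 had 3.44 in treated and 3.81 in control cells, so the alpha chains were all below background on both arrays and no fold is given for them.

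The beta chains sat just over background on the LBH589 array. HLA-DPB1 had 6.75 in LBH589-treated cells and 4.61 in control cells, a 1.47-fold difference. HLA-DQB1 had 5.88 in LBH589-treated cells and 2.95 in control cells by a pair of probe sets with identical values, which is at least 1.33-fold higher over background. Its other probe set, listed with a RefSeq transcript, had 3.35 in LBH589-treated cells and 3.14 in control cells, below background on both. Under quantile normalization HLA-DQB1 passed the 2-fold size, with a log2 ratio of 1.002, and it was the only gene of the 36 called higher in any of the settings tried.

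CD74, the invariant chain that guards the peptide groove of new class II molecules, was below background with 2.95 in LBH589-treated cells and 3.45 in control cells. CTSS (cathepsin S), the protease that cuts CD74 down in professional antigen-presenting cells, had 3.09 in LBH589-treated cells and 3.50 in control cells. HLA-DOB, a chain of the DO molecule that restrains HLA-DM, had 3.43 in treated and 3.20 in control cells, and its partner HLA-DOA had 6.03 in LBH589-treated cells and 7.08 in control cells. Neither the invariant chain nor its protease was therefore detected above background.

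The genes of HLA-DM, the editor that swaps peptides on class II molecules, were the exception. HLA-DMA had 22.8 in LBH589-treated cells and 12.0 in control cells, 1.90-fold higher, and the log2 ratios of its probe sets lay between 0.78 and 0.93. HLA-DMB had 9.88 in LBH589-treated cells and 5.45 in control cells, 1.81-fold higher, and its probe sets had log2 ratios of 0.67 and 0.86. Both genes of the heterodimer were thus brighter by similar amounts, on all their probe sets, though short of 2-fold. Of the 18 leukocyte markers that reached the floor, 9 had log2 ratios above 0 and 9 below, with a median of 0.02. CORO1A and CSF1R were 2-fold higher, CSF1R with 10.9 in LBH589-treated cells and 4.06 in control cells (at least 2.46-fold). Neither reached 2-fold with 50 added to every intensity. TYROBP was lower, with 9.46 in LBH589-treated cells and 11.6 in control cells, and PTPRC, CD14, CD3E and MS4A1 were below background on both arrays. Of the 11 class II genes measured, none was 2-fold higher or lower, and 5 reached background on at least 1 array.

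Class I and class II promoters share a module bound by the RFX complex, CREB-type factors and NF-Y, whose binding letters include the CCAAT box and the CRE core. The window of HLA-B lies at chr6:31357130-31357429 on the minus strand and that of HLA-DMA at chr6:32953048-32953347 on the minus strand. They are shown as a classical class I gene and a class II gene that were both brighter on the LBH589 array. Capitals mark CCAAT or ATTGG and TGACG or CGTCA.
HLA-B: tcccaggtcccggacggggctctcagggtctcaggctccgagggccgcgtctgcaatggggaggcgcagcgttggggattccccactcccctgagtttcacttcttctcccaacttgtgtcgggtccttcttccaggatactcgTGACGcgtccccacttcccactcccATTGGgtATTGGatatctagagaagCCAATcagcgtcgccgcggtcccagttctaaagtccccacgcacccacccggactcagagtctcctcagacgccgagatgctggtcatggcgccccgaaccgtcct
HLA-DMA: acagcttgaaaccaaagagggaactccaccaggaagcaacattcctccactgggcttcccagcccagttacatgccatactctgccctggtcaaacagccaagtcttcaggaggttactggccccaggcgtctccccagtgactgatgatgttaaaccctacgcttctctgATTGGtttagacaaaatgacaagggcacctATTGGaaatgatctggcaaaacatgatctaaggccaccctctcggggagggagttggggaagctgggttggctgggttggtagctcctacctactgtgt

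A CCAAT box was present in 20 of the 31 genes with a window (64.5%), against 39.7% of all genes in the promoter table and 42.4% of the 13648 genes detected. A CRE core was present in 14 of 31 (45.2%), against 28.4% of all genes and 36.4% of those detected. Among the 10 class II genes with a window, 9 held a CCAAT box, 5 a CRE core and none an ISRE core. Of the 5 genes that were 2-fold lower, 2 held a CCAAT box and 1 a CRE core. These short letter runs are common, and nothing about the factors follows from them.

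The transcription factors of these promoters were little changed. CIITA, the coactivator without which class II genes are not expressed, was below background with 3.91 in LBH589-treated cells and 4.04 in control cells. NLRC5, the related coactivator of class I genes, had 5.75 in LBH589-treated cells and 7.32 in control cells, a 1.27-fold lower value close to background. Of the RFX complex that binds the shared module, RFX5 had 36.6 in LBH589-treated cells and 32.6 in control cells, RFXANK had 23.8 in treated and 25.8 in control cells, and RFXAP had 4.50 in treated and 4.14 in control cells. No factor of the 5 reached 2-fold, and the median log2 ratio was -0.05. Of 6 further factors of the module, none reached 2-fold, and the lowest log2 ratios were -0.83 for both NFYC, a subunit of NF-Y, and ATF1.

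The route from interferon gamma to these genes differed most, among the genes given here, at 1 chain of the receptor. IFNGR2, the signalling chain of the receptor, had 10.2 in LBH589-treated cells and 45.7 in control cells and was 4.46-fold lower. IFNGR1, the chain that binds the cytokine, had 139 in LBH589-treated cells and 128 in control cells. The signalling chain was thus dimmer with LBH589, and the chain that binds the cytokine was within 2-fold. The kinase JAK1 had 188 in LBH589-treated cells and 97.1 in control cells, 1.93-fold, while JAK2 had 7.02 in treated and 7.07 in control cells. IRF1, an interferon-induced factor that activates class I, TAP1 and CIITA genes, had 6.45 in LBH589-treated cells and 8.31 in control cells. With 50 added to every intensity, IFNGR2 did not reach 2-fold, with a log2 ratio of -0.67.

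Of 11 endosomal proteases and reductases, which prepare peptides for class II, 3 were 2-fold higher and 1 was lower. Of the 11, 9 reached background. Over all genes that reached background, 6.92% were 2-fold higher and 6.85% lower. IFI30 (GILT), a thiol reductase that unfolds endosomal antigens, had 1156 in LBH589-treated cells and 251 in control cells and was 4.60-fold higher. CTSV, listed as CTSL2, a cathepsin best known from the thymus, had 327 in LBH589-treated cells and 84.0 in control cells, and its relative CTSL was below background on both arrays with 3.18 in treated and 2.996 in control cells. CTSB (cathepsin B) was 2.31-fold higher, with 375 in LBH589-treated cells and 162 in control cells. SPPL2A, the intramembrane protease that clears the last fragment of CD74, was 2.26-fold lower, with 146 in LBH589-treated cells and 329.7 in control cells. With 50 added to every intensity SPPL2A fell just short of 2-fold, with a log2 ratio of -0.96. IFI30, CTSV, CTSB and SPPL2A were all well above background in both groups, in cells whose class II chains were near it.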

How the data were processed

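The deposited intensity of each probe set is on a linear scale and was made by the authors with gene-level RMA, per the file headers, whereas the submitters' processing notes name MAS5. The deposited fold is the authors' ratio of LBH589 over control intensity and equals that ratio to within a relative difference of 9.89e-09. The values in the series' value table equal those intensities in all 33297 probe sets. RNA was isolated with an RNeasy kit and labelled with a cRNA kit of Affymetrix, per the labels' protocols. Columns were tied to groups by their names, which hold LBH or neg. The array type, tool versions and genome build were not given in the sources used here.

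Current gene symbols came from RefSeq's annotation of GRCh38.p14, through the accession for 18276 probe sets, the symbol for 1135 and a former symbol for 1045, while 1487 kept the name in the table. An entry that repeats 1 symbol, as for HLA-C, was counted as that gene, and 11234 probe sets with no symbol and 120 with several different ones were left out of gene counts. A gene's value is that of its probe set with the brightest mean over both arrays. An "at least" fold is the brighter intensity over background and is used where the dimmer one lies below it.

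With 1 array per group there is no test, and the number of arrays limits the precision. The ratio step was tested on simulated data. The 37 genes and all lists were chosen with earlier results of these data known. All of them are named here. Of other lists, up to 4 genes past 2-fold each are named, along with IRF1, JAK1, JAK2, IFNGR1, IFNGR2, PSMB5, PSMB6, PSMB7 and CTSL. A gene of the interferon gamma list is not reported here. Remaining genes named are examples chosen after their values were seen. Alternatives were the median over probe sets, other floors, 50 added to each intensity, the deposited fold without a filter, quantile normalization, centring and the value table. Values were computed in Python 3.11.15 (pandas 2.3.3, numpy 2.4.6), and figures drawn with matplotlib 3.10.9.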

Additional observations from a re-analysis of the deposited data

How the results depend on the processing

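No paired analysis was possible because each group is 1 array. The count of 2-fold lower genes was 5 of 36 in the main setting and stayed at 5 under the median over probe sets, the floor at background, the deposited fold, quantile normalization, centring and the value table. With the floor at background only 29 of these genes were left, and 896 of 13328 over all genes were 2-fold lower. With a floor of 16 it was 3 of the 20 left, where 619 of 7791 over all genes were 2-fold lower. With 50 added to each intensity it was 1 of 36, where 146 of 18793 over all genes were then 2-fold lower. The count of 2-fold higher genes was 0, and 1 under quantile normalization. With 50 added, the median log2 ratio was -0.41 for class I loading and assembly, 0.063 for the immunoproteasome and 0.033 for the class II chains. The median of the class II editing genes was -0.04 over all 6, of which 3 lay above 0 and 3 below, 0.86 over the 3 left with a floor at background and 0.51 for the 1 left with a floor of 16, since dim genes drop out. No class II chain was left with a floor of 16. Among single genes named, 14 of 58 calls changed with 50 added, 3 of 38 with a floor of 16 and 1 of 58 under quantile normalization, and no called ratio changed sign. JAK2, which is within 2-fold, had a log2 ratio of -0.0087 in the main setting and 0.029 under quantile normalization. The other settings changed no call.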

Other observations

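Among the class I-like proteins, 1 of 11 was 2-fold higher and none was lower, and 7 reached background. Over all genes detected, 4.91% were 2-fold higher and 4.86% lower, and these shares apply to the peptidases below as well. MICA, a stress ligand of the NKG2D receptor, had 61.6 in LBH589-treated cells and 21.4 in control cells and was 2.87-fold higher. The lipid-presenting CD1 genes CD1A, CD1B, CD1C and CD1E were below background on both arrays. Of 7 cytosolic and endosomal peptidases, TPP2, which trims long peptides left by the proteasome, was 2.04-fold higher, with 169 in LBH589-treated cells and 83.0 in control cells. NPEPPS, the puromycin-sensitive aminopeptidase, was 2.32-fold lower, with 114 in LBH589-treated cells and 264 in control cells. With 50 added to every intensity, none of MICA, TPP2 and NPEPPS reached 2-fold.

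Of 9 costimulatory and checkpoint ligands, CD276 (B7-H3) was 2.09-fold lower, with 24.8 in LBH589-treated cells and 51.8 in control cells, and none was 2-fold higher. Over all genes detected, 4.86% were 2-fold lower and 4.91% higher. With 50 added to every intensity CD276 did not reach 2-fold, with a log2 ratio of -0.44. CD40, a receptor that helps antigen-presenting cells to activate T cells, had 17.6 in LBH589-treated cells and 9.60 in control cells. CD274 (PD-L1) was near background, with 5.17 in LBH589-treated cells and 4.27 in control cells. CD80 and CD86, the main costimulatory ligands of professional antigen-presenting cells, were below background on both arrays. Of 7 genes of class II turnover and transport, none reached 2-fold.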
